A study of Arabidopsis thaliana with 24 samples.

Results

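The comparison described here sets *Arabidopsis thaliana* seedlings of the accession Col-0 grown at 10 °C and collected 23 days after transfer to the growth chamber against Col-0 seedlings grown at 27 °C and collected 7 days after transfer. Each group has 3 libraries, so the comparison rests on 6 of the 24 libraries of the series, chosen by accession and temperature as the labels give them. The other 18 libraries are Col-0 at 16 °C (12 days) and 23 °C (8 days), and IP-Svi-0, a natural accession whose early flowering the series addresses, at 10, 16, 23 and 27 °C with the same days of harvest. All seedlings were stratified in the cold for 3 days and raised on diluted MS medium, and RNA was taken from whole seedlings, with shoot and root together. Because plants at 10 °C were collected 23 days after transfer and those at 27 °C 7 days after it, temperature and time of growth are confounded. These cannot be told apart in any result below, nor can fewer cells of a type be told apart from less RNA per cell. The labels do not say whether replicates came from separate cultures, so p-values measure the spread between these samples.

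Plants sense temperature through the same networks that read light and time of day, and growth is slow in the cold and fast in mild heat. Cold acclimation in Arabidopsis runs through the CBF transcription factors, which bind the CRT/DRE element in the promoters of COR genes, whose hydrophilic products protect membranes. Warmth raises chaperones such as HSP70 and HSP90, which refold proteins, through heat shock factors. Low temperature with light also leads to anthocyanin, the red pigment of stressed leaves.

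Sequencing gave 24045149 to 24164452 reads in each of the 6 libraries, and 355824 to 630185 reads at 10 °C and 511199 to 745270 at 27 °C were counted at genes. These are 1.48% to 2.61% of the reads at 10 °C and 2.12% to 3.09% at 27 °C, and most other reads fell at no annotated gene in the authors' count. The kit keeps the strand, but the labels do not say how the count treated strand. The level of every gene depends on that setting, also where no gene lies on the opposite strand, and its effect was not tested. Genes whose exons face an exon of a gene on the opposite strand made up 20.53% of the matched nuclear genes and held 51.59% to 64.09% of nuclear counts, so that a count at such a gene may come from its partner, which was not tested; the partner is named below where there is one. Genes with no such partner held 39.08% ± 4.35 at 10 °C and 45.61% ± 3.89 at 27 °C of nuclear counts (SD, n = 3 each). Replicate 2 at 10 °C stood apart, with 2.07% of its counts at chloroplast genes (0.282% and 0.388% in the other 10 °C libraries, 0.102% to 0.798% at 27 °C) and 26.5% of its reads not unique. As a check of the labelled tissue, the levels of 22 root marker genes, 11 of them tested, were summed. The sum ran from 3600 to 4139 CPM (counts scaled to a common library total) at 10 °C and from 3490 to 4977 CPM at 27 °C. The photosystem and carbon fixation lists were the most counted of all lists in both groups.

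Of 10097 genes tested, 1156 differed between 10 and 27 °C by edgeR's quasi-likelihood test at a Benjamini-Hochberg adjusted p under 0.05, which is 11.4% of those tested. The level was higher at 10 °C for 632 genes (6.26%) and lower for 524 genes (5.19%). These shares are the background for every gene group below, together with the median log2 change of all genes tested, -0.02 (10 over 27 °C). The change was at least 2-fold for 1011 of the 1156 genes and at least 4-fold for 142 genes that were higher and 139 that were lower. The 3 libraries at 10 °C lay wholly above or below the 3 at 27 °C for 2894 genes (28.7%), above for 13.3% and below for 15.3% of those tested, and 1082 of the 2894 passed the test. At an unadjusted p under 0.05, 12.5% of the genes tested were higher at 10 °C and 11.4% lower, which is the background for counts at that threshold. Genes with an opposite-strand exon made up 58.63% of the genes higher at 10 °C and 25.76% of those lower, against 36.87% of those tested. With the share of counts held by partner-free genes entered as a covariate, 486 genes were higher and 768 lower, so that the share of calls that were higher was 38.76%, against 54.67% without the covariate.

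The list with the most calls was that of photosynthetic light capture. Among 50 measured genes of the photosystems, their antennae and electron carriers, 25 were higher at 10 °C and 3 were lower, and the median log2 change was 0.73. The summed level of all 51 listed genes was 46620 to 54530 CPM at 10 °C, against 21810 to 24750 CPM at 27 °C, with no overlap. Without replicate 2 at 10 °C, 22 genes of the list were higher and 2 lower. Without replicate 3 at 10 °C, the higher calls of LHCA2, PSAE-1, PSAE-2, PSAH-1, PSAL, PSAO and PSBO1 were lost. Without replicate 1 at 27 °C, the same calls and that of LHCB6 were lost. The changes of these genes were all under 2-fold. Of the 17 measured genes of the list with an exon partner on the other strand, 12 were called.

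LHCB1.1, a chlorophyll a/b-binding protein of the main antenna of photosystem II, had 5092, 1042 and 1484 CPM at 10 °C, against 22.4, 38.3 and 19.8 CPM at 27 °C (log2 change 6.53 ± 0.63 SE, adjusted p = 1.28e-09). Every 10 °C library was far above every 27 °C library, although replicate 1 was several times the other two. It stood at 24.6 to 243 CPM at 16 °C and 77.7 to 138 CPM at 23 °C, so the widest step was between 10 and 16 °C. LHCB1.2 behaved alike with 6842, 8008 and 2728 CPM at 10 °C, against 47.2, 96.3 and 72.7 CPM at 27 °C (log2 change 6.34 ± 0.78 SE, adjusted p = 2.73e-07). LHCB1.1, LHCB1.2 and LHCB1.3 are neighbouring near-identical copies on chromosome 1, so how reads were divided among them is uncertain.

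The rise extended beyond that cluster. LHCB2.2, of the other major antenna subfamily, had 173, 129 and 221 CPM at 10 °C, against 6.21, 17.1 and 11 CPM at 27 °C (log2 change 3.92 ± 0.36 SE, adjusted p = 2.51e-10), with every 10 °C library higher. LHCB1.4 rose by a log2 change of 5.75 and LHCB2.3, which overlaps AT3G27700 on the other strand, by 4.73. LHCA1, of the photosystem I antenna, had 1117, 1066 and 1144 CPM at 10 °C, against 294, 324 and 326 CPM at 27 °C, a log2 change of 1.82 ± 0.27 SE. Its replicates were tight in both groups and did not overlap.

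The 3 members that fell are a minor leaf ferredoxin and 2 minor antenna proteins. FD1, an electron acceptor of photosystem I, had 48.6, 80.8 and 51.2 CPM at 10 °C, against 309, 394 and 394 CPM at 27 °C (log2 change -2.65 ± 0.31 SE, adjusted p = 8.21e-08). Its level followed temperature, with 111 to 183 CPM at 16 °C and 273 to 349.5 CPM at 23 °C. LHCB4.3, a variant of the minor antenna protein CP29, had 43.6, 88.8 and 51.2 CPM at 10 °C, against 222, 202 and 169.7 CPM at 27 °C (log2 change -1.77, adjusted p = 2.37e-05). LHCA6, which joins photosystem I to the NDH complex, had a log2 change of -0.90 that lost its call in 12 of the alternative analyses, among them those without replicate 1, 2 or 3 at 10 °C and without replicate 1 or 2 at 27 °C. The list thus held calls in both directions.

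**Figure D1:**
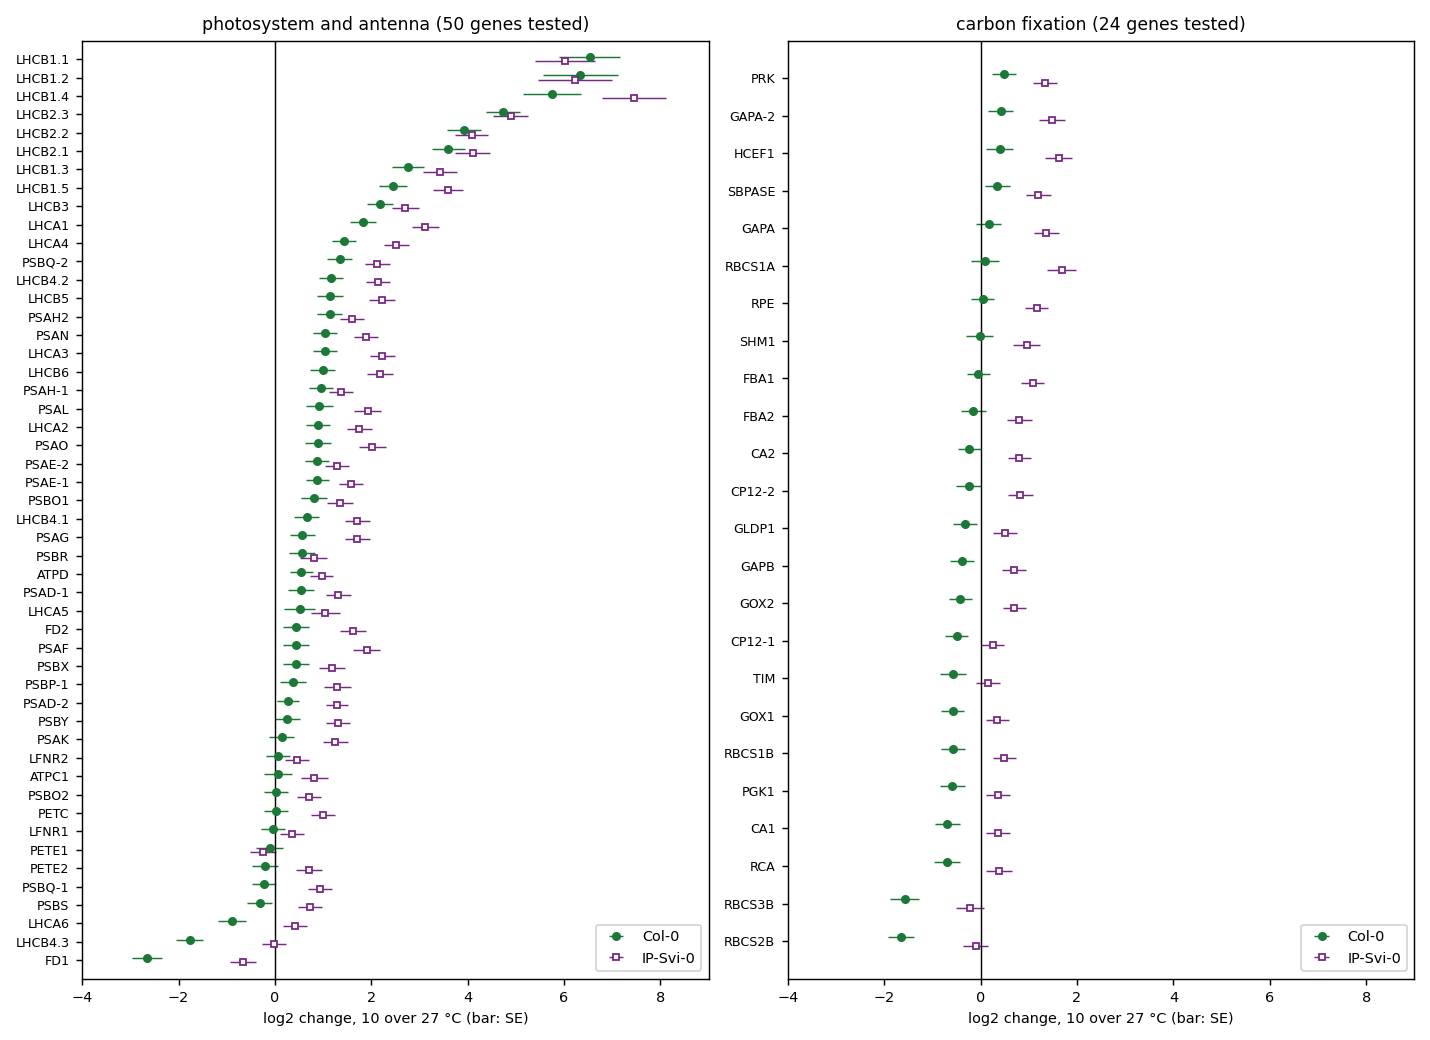
Log2 change (10 over 27 °C) with its SE for each measured gene of the photosystems and antennae (50 genes) and of carbon fixation (24 genes), Col-0 as circles and IP-Svi-0 as squares; the vertical line marks no change. Antenna genes lie furthest to the right in both accessions, while most Col-0 carbon fixation genes sit at or left of the line and most IP-Svi-0 ones right of it.

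The carbon fixation list held 2 calls, both lower. Of 24 measured genes of the Calvin cycle and photorespiration, 0 were higher and 2 lower at 10 °C by edgeR's test, with a median log2 change of -0.29, and 12 had all 10 °C libraries below all 27 °C libraries, against 3 with the reverse (15.3% and 13.3% among all genes tested). At an unadjusted p under 0.05, 0 were higher and 9 lower (12.5% and 11.4% among all genes). The summed level was 20150 to 23520 CPM at 10 °C, against 30410 to 34830 CPM at 27 °C. With DESeq2 in place of edgeR 0 of the 24 were higher and 6 lower, and with the covariate above 4 were lower and 2 higher. The 2 genes that fell in the edgeR test encode the small subunit of Rubisco, the enzyme that fixes carbon dioxide.

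RBCS2B had 956, 1131 and 1056 CPM at 10 °C, against 3188, 3524 and 3205 CPM at 27 °C (log2 change -1.66 ± 0.27 SE, adjusted p = 4.29e-05). The levels at 16 °C (2669 to 3693 CPM) and 23 °C (2924 to 3436 CPM) were close to those at 27 °C, so the 10 °C libraries alone stood low. RBCS3B had 1950.0, 2419 and 2447 CPM at 10 °C, against 5884, 7161 and 7289 CPM at 27 °C (log2 change -1.58 ± 0.30 SE, adjusted p = 0.000304). RBCS1A, the most counted of the 4 small-subunit genes at 10 °C, had 5989, 3945 and 4816 CPM at 10 °C, against 4007, 5434 and 4474 CPM at 27 °C, and its groups overlapped (log2 change 0.08 ± 0.29 SE, adjusted p = 0.902). RBCS1B, RBCS2B and RBCS3B are neighbouring and similar genes on chromosome 5, and how their reads were divided is uncertain.

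The 2 accessions held different calls here, but the test of the difference passed for only 2 of the 24 carbon fixation genes. A difference of the list as a whole was not tested. In IP-Svi-0, 14 of the 24 carbon fixation genes were higher at 10 °C than at 27 °C (8.45% of all genes tested were higher in that accession and 9.92% lower), with a median log2 change of 0.75. RBCS1A in IP-Svi-0 had 15770.0, 21650.0 and 15560.0 CPM at 10 °C, against 4973, 4874 and 6693 CPM at 27 °C. The difference between accessions in the change (Col-0 minus IP-Svi-0) passed edgeR's test for RBCS1A (log2 -1.59, adjusted p = 0.0483) and RBCS2B (log2 -1.56, adjusted p = 0.0328); leaving out 1 of the 12 libraries in turn, these calls were lost in 9 and 7 of 12 fits. It also passed for FD1 (log2 -1.99, adjusted p = 0.00997) and LHCB4.3 (log2 -1.75, adjusted p = 0.0134), whose log2 changes in IP-Svi-0 were -0.67 and -0.02 and did not pass there; FD1 kept its call in all 12 fits and LHCB4.3 lost it in 3. LHCB1.1 rose by a log2 change of 6.02 in IP-Svi-0, and the difference between accessions did not pass (adjusted p = 0.798).

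The chlorophyll synthesis list held 4 calls, all higher at 10 °C. Of 20 measured genes, 4 were higher at 10 °C and 0 lower by edgeR's test, with a median log2 change of 0.27, and 8 had all 10 °C libraries above all 27 °C libraries, against 0 with the reverse; DESeq2 gave the same counts, and at an unadjusted p under 0.05 the counts were 6 and 1. Without replicate 3 at 10 °C, 0 were higher, and without replicate 1 at 27 °C 2 were. GUN4, which activates the magnesium insertion step, rose by a log2 change of 1.02, PORB, which reduces protochlorophyllide in light, by 1.01, and CRD1, of the cyclase step, by 0.89. Each has a partner on the other strand, GCN2 for GUN4, AT4G27450 for PORB and SIP2;1 for CRD1. Of 41 measured chloroplast-encoded genes 17 were higher and 0 lower (0 by DESeq2 as well), with a median log2 change of 2.22, but the 10 °C libraries spread widely: ATCG00700 had 131, 4224 and 556 CPM at 10 °C, against 16.1, 62.0 and 104 CPM at 27 °C. The highest value is that of replicate 2, the library with the most chloroplast counts. Without it 2 of the 41 genes were higher, and with the covariate 2 as well, against 37 of 52 without replicate 1 at 10 °C and 7 of 52 without replicate 1 at 27 °C.

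Cold-acclimation genes formed a small set with large changes. Of 26 measured genes of the cold list, 7 were higher at 10 °C and 4 lower, with a median log2 change of 0.20, and the 7 were COR15A, COR15B, KIN1, KIN2, XERO2, COR413IM1 and RD29A. The count of 7 was the same without replicate 2 at 10 °C, where 2 were lower. Without replicate 3 at 10 °C, replicate 1 at 27 °C or replicate 2 at 27 °C, 2 were lower as well.

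COR15A encodes a chloroplast-targeted protein that protects membranes in freezing. Its level was 644, 1131 and 907 CPM at 10 °C, against 24.8, 14.5 and 11 CPM at 27 °C (log2 change 5.65 ± 0.40 SE, adjusted p = 4.51e-13). It stood at 32.8 to 81.9 CPM at 16 °C and 21.9 to 36.4 CPM at 23 °C, so all the other temperatures lay far below 10 °C. The stretch from 250 bases before to 50 bases after its annotated start, at chr2:17712281-17712580 on the minus strand, was read from RefSeq's TAIR10.1 genome. It is shown because it holds the CBF binding core, CCGAC on either strand (GTCGG on the other), in capitals; the 2 matches begin 142 and 79 bases before the start.

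COR15A promoter: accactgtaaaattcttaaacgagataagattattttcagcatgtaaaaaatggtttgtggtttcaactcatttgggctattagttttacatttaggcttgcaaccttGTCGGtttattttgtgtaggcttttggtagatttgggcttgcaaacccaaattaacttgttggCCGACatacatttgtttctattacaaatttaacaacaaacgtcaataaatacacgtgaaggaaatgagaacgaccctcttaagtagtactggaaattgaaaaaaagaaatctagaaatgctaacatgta

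The same 5 letters were found in 10 of the 33 promoters of the cold list, and in 15% of 26707 promoters of that length. They were not in the windows of KIN1, KIN2 or COR15B, which also rose. For the heat shock list the element GAANNTTC was in 7 of 31 promoters, against 11.5% of all. The window of HSP70 held 1 match, which begins 20 bases after the annotated start, and those of HSP90.1 and ROF2 held no match. For the photosystem list the I-box GATAAG on either strand was in 22 of 51, against 14.6% of all. It was in the window of LHCB2.1 but not in those of LHCB2.2, LHCB2.3 and LHCB1.3. These matches describe letters and not binding.

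KIN1, a small hydrophilic protein induced by cold and abscisic acid, had 449, 513 and 530.2 CPM at 10 °C, against 13.7, 3.96 and 4.41 CPM at 27 °C (log2 change 5.95 ± 0.46 SE, adjusted p = 2.49e-12). Its level fell at each step of the series, with 71.6 to 161 CPM at 16 °C and 25.9 to 36.4 CPM at 23 °C. The neighbouring copy KIN2 had 461, 533 and 660.5 CPM at 10 °C, against 77.0, 50.1 and 48.5 CPM at 27 °C, a log2 change of 3.21 ± 0.28 SE. KIN2 had a higher level than KIN1 at 27 °C and a like level at 10 °C. COR15B, which overlaps AT2G42520, rose by a log2 change of 4.53, the dehydrin XERO2 by 2.60 and COR413IM1, of the inner chloroplast envelope, by 2.38. RD29A, a late reporter of cold and drought, had 78.8, 48.5 and 83.7 CPM at 10 °C, against 37.3, 35.6 and 22.0 CPM at 27 °C (log2 change 1.15 ± 0.35 SE, adjusted p = 0.0266), a call lost without replicate 1 or 3 at 10 °C and without replicate 2 or 3 at 27 °C.

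Not all COR genes passed. COR47, a dehydrin, had 560.0, 569 and 667 CPM at 10 °C, against 459.6, 392 and 346 CPM at 27 °C; the groups did not overlap, but the log2 change of 0.58 did not pass (adjusted p = 0.109). COR413-PM1, of the plasma membrane, had a log2 change of 0.05 and overlapping groups. The regulators CBF1, CBF2 and CBF3 had too few counts to be tested, with 4 counts of CBF3 at 10 °C and 1 at 27 °C over 3 libraries each. The 4 that fell are ZAT10, CSP3, GRP8 and RAV1, of which CSP3 and RAV1 were the calls lost without the libraries named above. ZAT10, a zinc-finger repressor of stress genes, had 11.7, 0 and 6.98 CPM at 10 °C, against 59.6, 43.5 and 72.7 CPM at 27 °C (log2 change -2.87 ± 0.44 SE, adjusted p = 1.29e-05). Membrane lipid genes were mostly below the threshold, with 0 of 11 measured desaturases higher and 1 lower: FAD2, which makes linoleic acid in the endoplasmic reticulum, had 98.9, 84.8 and 105 CPM at 10 °C, against 268, 293 and 267 CPM at 27 °C (log2 change -1.51 ± 0.26 SE).

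**Figure D2:**
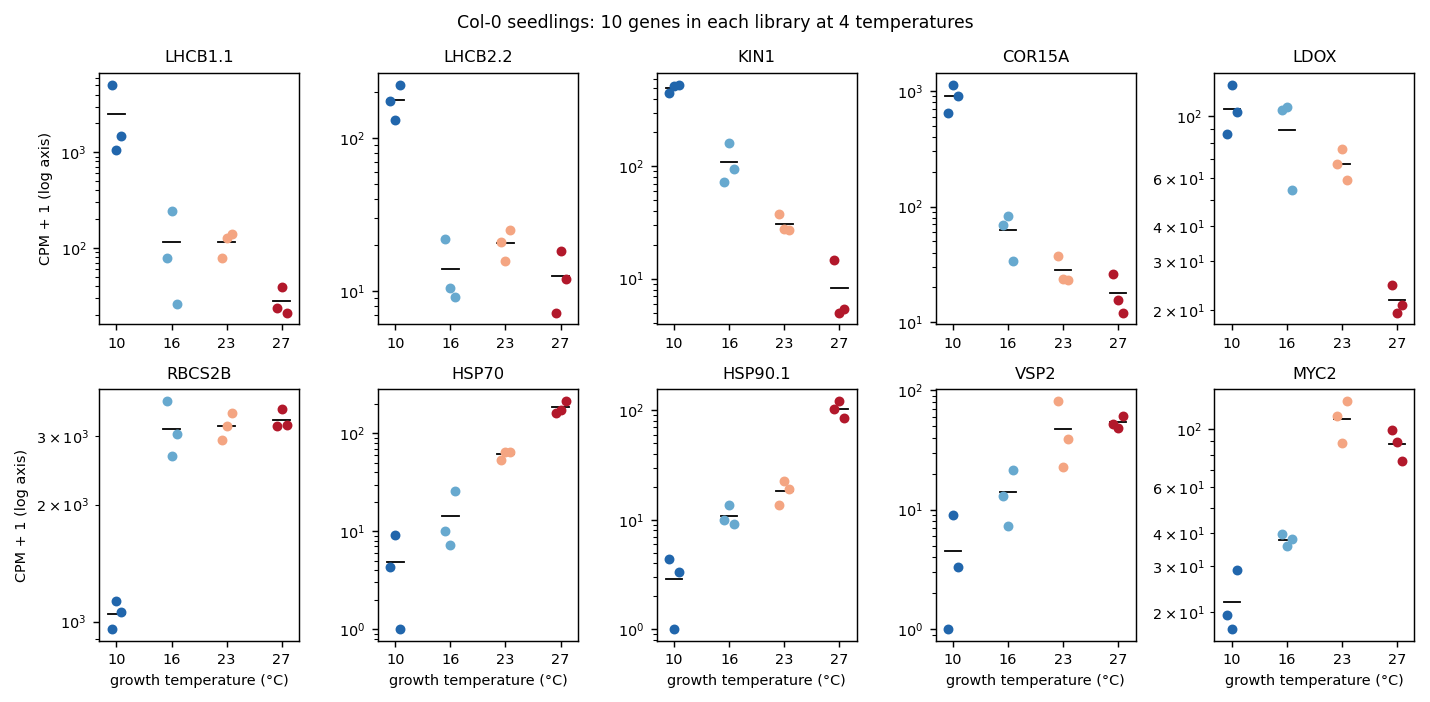
Level in each Col-0 library (CPM + 1, log axis) of 10 genes at 10, 16, 23 and 27 °C, from low to high temperature; each point is a library and each bar a group mean. COR15A and KIN1 are highest at 10 °C and HSP70 and HSP90.1 at 27 °C, with intermediate levels between.

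Heat shock genes were among those called lower. Of 21 measured heat shock and chaperone genes, 0 were higher at 10 °C and 6 lower by edgeR's test, with a median log2 change of -0.29. DESeq2 gave 0 and 6, an unadjusted p under 0.05 gave 1 and 7, and no alternative analysis moved the count of 6 by more than 1.5 times. HSP70, a heat-inducible cytosolic member of its family, had 3.35, 8.08 and 0 CPM at 10 °C, against 162, 173 and 214 CPM at 27 °C (log2 change -5.75 ± 0.44 SE, adjusted p = 2.49e-12). That is 4 counts in 3 libraries, against 358. Its level rose at each temperature, through 6.30 to 24.6 CPM at 16 °C and 52.7 to 63.8 CPM at 23 °C.

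HSP90.1, the heat-inducible cytosolic HSP90, had 3.35, 0 and 2.33 CPM at 10 °C, against 103, 121 and 83.8 CPM at 27 °C (adjusted p = 5.05e-11). With 3 counts at 10 °C and 213 at 27 °C, the level at 27 °C was 44.9 times that at 10 °C, with an exact interval from 15.1 to 219.2 that covers counting error only. At 23 °C HSP90.1 had 12.5 to 21.5 CPM, so most of its rise in CPM lay between 23 and 27 °C. Its rise in fold from 10 to 23 °C rests on the 3 counts at 10 °C. ROF2, a co-chaperone of HSP90, fell by 3.5 on the log2 scale, the heat shock factor HSFB2A by 2.59 and HSP70-2 by 1.93. DREB2A, a transcription factor of drought and heat that overlaps AT5G05420, fell by 2.62, a call lost without replicate 1 at 10 °C.

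Most of the list did not pass. HSC70-1, the constitutive cytosolic HSP70, had 1167, 654 and 698 CPM at 10 °C, against 999.9, 958 and 1093 CPM at 27 °C (log2 change -0.27, adjusted p = 0.58). HSP101, the disaggregase needed for heat tolerance, which overlaps AT1G74300, had 57.0, 80.8 and 65.1 CPM at 10 °C, against 42.2, 47.5 and 44.1 CPM at 27 °C and did not pass (log2 change 0.56, adjusted p = 0.31). Outside the list, AT5G51440, an HSP20-like chaperone gene, had 0 counts in all 3 libraries at 10 °C, against 14.9, 22.4 and 26.4 CPM at 27 °C. It was at least 9.03-fold lower at 10 °C, with 3 counts over the group as the floor. Hop3, which links HSP70 to HSP90 and overlaps PME1, had 1.68, 0 and 0 CPM at 10 °C, against 47.2, 60.7 and 35.3 CPM at 27 °C.

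**Figure D3:**
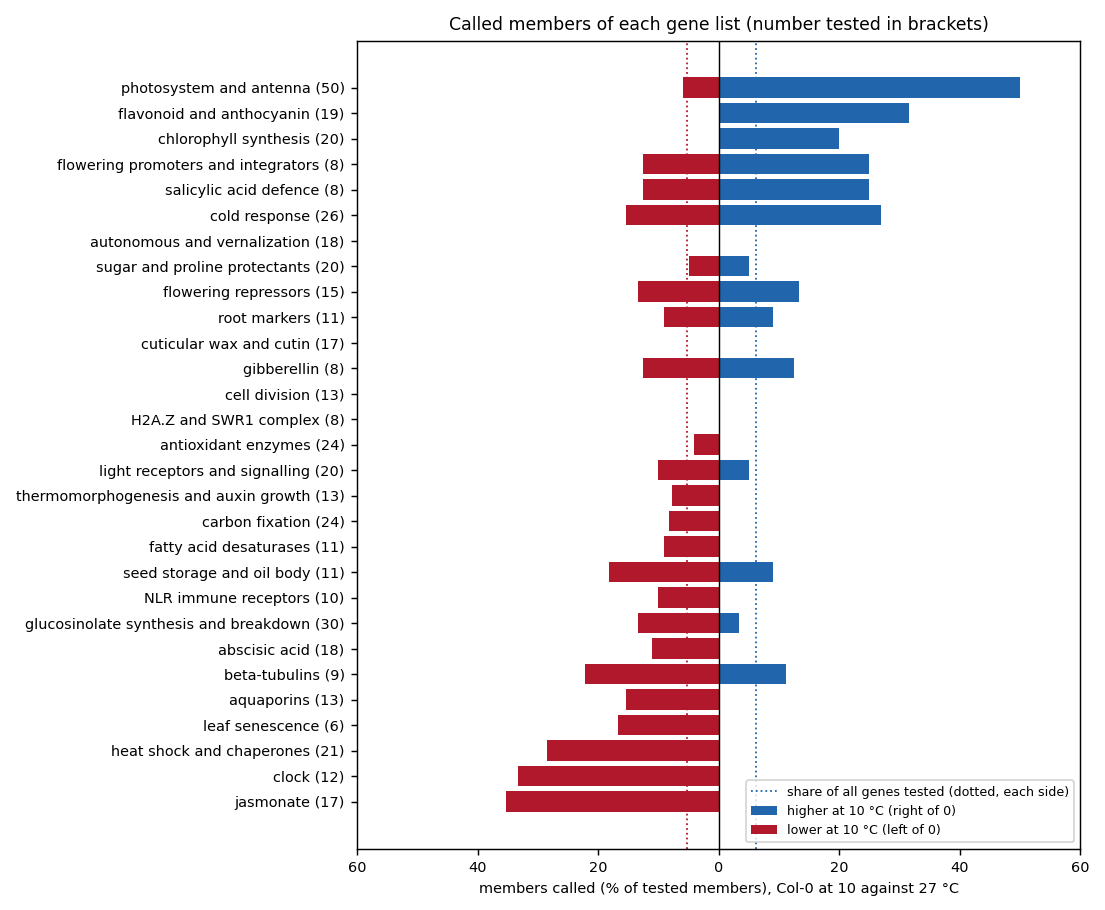
Percent of the measured genes of each list that were higher or lower at 10 than at 27 °C in Col-0 (edgeR, adjusted p under 0.05); dotted lines give the shares among all genes tested, 6.26% higher and 5.19% lower. The photosystem and flavonoid lists extend furthest on the higher side, and the jasmonate, clock and heat shock lists furthest on the lower side.

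The flavonoid list held 6 calls, all higher at 10 °C. Of 19 measured flavonoid genes 6 were higher and 0 lower by edgeR's test, with a median log2 change of 0.45. DESeq2 gave 6 and 0, an unadjusted p under 0.05 gave 8 and 0, and no alternative analysis moved the count of 6 by more than 1.5 times. LDOX, which makes the coloured anthocyanidin, had 85.5, 129 and 102 CPM at 10 °C, against 24, 18.5 and 19.8 CPM at 27 °C (log2 change 2.3 ± 0.34 SE, adjusted p = 1.03e-05). DFR, the step before it, had 98.9, 133 and 90.7 CPM at 10 °C, against 38.5, 22.4 and 15.4 CPM at 27 °C (log2 change 1.98 ± 0.42 SE, adjusted p = 0.00106). UGT79B1, a glycosyltransferase of anthocyanin, rose by 2.23. For LDOX and DFR the level at 16 °C was in the range of that at 10 °C, so the low libraries were those at 27 °C. The early enzymes changed less, with log2 changes of 1.31 for TT5, 1.22 for TT7, 0.99 for F3H, which overlaps AT3G51238, and 0.15 for chalcone synthase TT4, which did not pass. The call of TT5 was lost without replicate 1 at 27 °C, and that of TT7 without replicate 2 or 3 at 10 °C and without replicate 2 at 27 °C. TT8, the bHLH regulator of late enzymes, had too few counts to be tested and stood at 21.8, 20.2 and 23.3 CPM at 10 °C, against 3.73, 3.96 and 2.2 CPM at 27 °C.

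The jasmonate list held 6 calls, all lower at 10 °C. Jasmonate is a lipid hormone of wounding and defence, and of 17 measured genes of its synthesis and response 0 were higher at 10 °C and 6 lower by edgeR's test, with a median log2 change of -0.83. DESeq2 gave 0 and 6, an unadjusted p under 0.05 gave 1 and 9, and no alternative analysis moved the count of 6 by more than 1.5 times. LOX2, the chloroplast lipoxygenase of its synthesis, had 275 to 300.1 CPM at 10 °C, against 533 to 771 CPM at 27 °C (log2 change -1.16), and AOC2, of a later step, changed by -1.10. MYC2, the main transcription factor of the response, which overlaps AT1G32630, had 18.4, 16.1 and 27.9 CPM at 10 °C, against 98.1, 88.4 and 74.9 CPM at 27 °C (log2 change -2.04 ± 0.34 SE, adjusted p = 5.81e-05).

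The vegetative storage protein genes, classic outputs of the hormone, had 0 and 3 counts in the cold. VSP1 had 0 counts at 10 °C, against 27.3, 17.1 and 11 CPM at 27 °C, so it was at least 7.86-fold lower with 3 counts over the group as the floor. VSP2 had 0, 8.08 and 2.33 CPM at 10 °C, against 50.9, 47.5 and 59.5 CPM at 27 °C (log2 change -4.33 ± 0.67 SE, adjusted p = 2.4e-05). From its 3 counts at 10 °C, the ratio of 27 over 10 °C was 21.9, with an exact interval of 7.29 to 107.9.

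Defence genes of salicylic acid were mixed, with 2 of 8 measured genes higher and 1 lower. PAD4, a lipase-like regulator of salicylic acid defence, had 329, 695 and 649 CPM at 10 °C, against 132, 127 and 216 CPM at 27 °C (log2 change 1.82). PR2, a glucanase made in defence, had 10.1, 16.1 and 27.9 CPM at 10 °C, against 2.48, 5.28 and 0 CPM at 27 °C (log2 change 2.49, adjusted p = 0.0227), and its call was lost without replicate 3 at 10 °C and without replicate 1 or 3 at 27 °C. PR1, the other usual marker, was not tested, with 10 counts at 10 °C and 0 at 27 °C. WRKY33, a transcription factor of defence against fungi, had 20.1, 48.5 and 30.2 CPM at 10 °C, against 188, 202 and 139 CPM at 27 °C (log2 change -2.54, adjusted p = 5.38e-07). WRKY33 shares 26 bases with AT2G38480 on the other strand.

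Genes of glucosinolates, the mustard-oil defence compounds, held 5 calls, 3 of them at breakdown. Of 30 measured genes 1 was higher and 4 lower, with a median log2 change of -0.12. ESM1, which favours isothiocyanate as the breakdown product, had 267, 226 and 298 CPM at 10 °C, against 69.6, 102 and 126 CPM at 27 °C (log2 change 1.44). NSP1, a nitrile specifier protein, had 154, 52.5 and 114 CPM at 10 °C, against 409.9, 478 and 322 CPM at 27 °C (log2 change -1.86). NSP5 changed by -1.71 and the synthesis gene UGT74B1 by -1.75, and IGMT1, which modifies indole glucosinolates, had 0 counts at 10 °C and was at least 2.95-fold lower, a call lost without replicate 1 or 3 at 10 °C and without replicate 1 at 27 °C.

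Among hormone and growth genes few passed. CYP707A3, which breaks down abscisic acid, had 0 counts at 10 °C, against 24, 17.1 and 26.4 CPM at 27 °C, and was at least 9.51-fold lower. It was at 0 in 2 of the 3 libraries at 16 °C and at 12.0 to 18 CPM at 23 °C. The receptor PYL5 had a log2 change of -1.78, and these 2 were the calls among 18 measured abscisic acid genes. Of 13 measured genes of warm growth and auxin, XTH22, a cell wall enzyme, was lower (log2 change -2.48) and 0 were higher by edgeR, by DESeq2 or at an unadjusted p under 0.05, and PIF4, the transcription factor at the head of warm growth, had 5 counts at 10 °C and 16 at 27 °C and was not tested. BAM5, a cytosolic beta-amylase, had 0, 12.1 and 0 CPM at 10 °C, against 57.1, 81.8 and 101 CPM at 27 °C. Of 13 aquaporins 2 were lower, the vacuolar TIP1;1 and TIP1;2, with log2 changes of -1.18 and -1.38, the first of which was not called without replicate 3 at 10 °C.

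The circadian clock list held 4 calls, all lower, and their number changed when single libraries were left out. Of 12 measured clock genes 0 were higher and 4 lower by edgeR's test, with a median log2 change of -0.88. The 4 were BOA, LUX, ELF4 and PRR3; DESeq2 gave 0 higher and 2 lower, and an unadjusted p under 0.05 gave 0 and 6. ELF4, a member of the evening complex with LUX, had 21.8, 36.3 and 30.2 CPM at 10 °C, against 79.5, 79.2 and 46.3 CPM at 27 °C (log2 change -1.31, adjusted p = 0.00759). LUX overlaps AT3G46650 and BOA overlaps UGT76E1 on the other strand. PRR3 was not called without replicate 2 at 10 °C. The count of 4 fell to 1 without replicate 1 at 10 °C or replicate 2 at 27 °C, to 2 without replicate 3 at 10 °C, or without replicate 1 at 27 °C, and to 0 with all libraries thinned to the smallest total. No hour of harvest is given in the labels.

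Flowering genes changed one by one. Of 15 measured repressors 2 were higher and 2 lower, with a median log2 change of -0.15. FLM, a MADS-box repressor whose splicing responds to temperature, had 31.9, 36.3 and 41.9 CPM at 10 °C, against 12.4, 9.23 and 6.61 CPM at 27 °C (log2 change 1.87 ± 0.48 SE, adjusted p = 0.00798); gene counts do not tell its splice forms apart. TOE1, an AP2-like repressor, had 111, 129 and 121 CPM at 10 °C, against 53.4, 64.6 and 57.3 CPM at 27 °C (log2 change 1.03). MAF4 (log2 change -1.82, with overlapping groups) and TEM2 (-1.14) were lower, and without replicate 3 at 10 °C neither passed; 1 of the list was lower without replicate 1 at 10 °C or without replicate 1 or 3 at 27 °C. FLC, the repressor silenced by winter cold, which overlaps AT5G01675, had 3.35, 0 and 6.98 CPM at 10 °C, against 4.97, 6.6 and 0 CPM at 27 °C, and SVP, its partner, had a log2 change of 0.03. SOC1, an integrator that promotes flowering, had 1.68, 0 and 4.65 CPM at 10 °C, against 1.24, 1.32 and 0 CPM at 27 °C in Col-0 (adjusted p = 0.614), and 27.1, 27.8 and 40.8 CPM at 10 °C, against 3.93, 6.82 and 3.05 CPM at 27 °C in IP-Svi-0. The difference between accessions for SOC1 did not pass (adjusted p = 0.628). FT, the mobile flowering signal, was not tested. Of 8 measured promoters and integrators of flowering 2 were higher and 1 lower, with a median log2 change of -0.17. All 3 have an exon partner on the other strand, and each lost its call in 4 to 9 of the alternative analyses.

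Genes at 2 microRNA loci rose in Col-0. AT5G14550 (chr5:4691006-4694055, minus strand) overlaps MIR398b on the plus strand by 116 bases, and it had 1018, 3085 and 2486 CPM at 10 °C, against 457, 315 and 454 CPM at 27 °C (log2 change 2.42 ± 0.35 SE, adjusted p = 5.04e-06). AT2G47020 (chr2:19319685-19322507, minus strand), which was chosen after its values were seen, overlaps MIR408 by 218 bases and had 605, 1211 and 1060.0 CPM at 10 °C, against 284, 197 and 306 CPM at 27 °C (log2 change 1.87 ± 0.33 SE, adjusted p = 0.000132). Neither passed in IP-Svi-0, where the changes were -0.16 and 0.10, and the difference between accessions passed for AT5G14550 (log2 2.58, adjusted p = 0.00331) and AT2G47020 (log2 1.77, adjusted p = 0.0471); leaving out 1 of the 12 libraries in turn, the call of AT2G47020 was lost in 8 fits and that of AT5G14550 in 0. Whether these reads came from the gene or from the precursor opposite was not tested. Both microRNAs are known to be made when copper is scarce and to act on transcripts of copper proteins. Their mature sequences, credited to RefSeq TAIR10.1, are shown because the loci lie under the changed counts; capitals mark the seed, bases 2 to 8, which they do not share. miR398b-3p lies at chr5:4691107-4691127 and miR408-3p at chr2:19319933-19319953, both on the plus strand.

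miR398b-3p: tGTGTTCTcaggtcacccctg

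miR408-3p: aTGCACTGcctcttccctggc

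The copper-zinc superoxide dismutases CSD1 and CSD2, the latter of the chloroplast, and their copper chaperone CCS are known targets of miR398. In the transcripts of these genes, the best ungapped pairing with miR398b-3p was read. Bases that do not pair (G:U counted as not pairing) are in capitals. A reading without gaps cannot place a site with a gap, so the number of paired bases does not tell targets from other transcripts. The CSD1 site lies at chr1:2827177-2827685 on the plus strand across an intron with 17 of 21 bases paired, the CCS site at chr1:4267521-4267541 on the minus strand with 15 paired, and the CSD2 site at chr2:12015572-12015592 on the plus strand with 13 paired.

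CSD1 site: AaggggtTTcctgagaTcaca

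CCS site: ATTgggAgacctgGgaacacT

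CSD2 site: TGCgggtgacctgGgaaACAT

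CSD1 had 15.1, 16.1 and 16.3 CPM at 10 °C, against 55.9, 42.2 and 72.7 CPM at 27 °C (log2 change -1.81 ± 0.36 SE, adjusted p = 0.000495). Its level rose at each temperature, with 20.5 to 32.8 CPM at 16 °C and 37.9 to 45.7 CPM at 23 °C, and it was the one gene of 24 measured antioxidant enzymes to pass. CSD1 shares 41 bases with emb2411 on the other strand. CCS had 15.1, 16.1 and 6.98 CPM at 10 °C, against 28.6, 31.7 and 19.8 CPM at 27 °C, and did not pass (log2 change -1.11, adjusted p = 0.106). CSD2, the chloroplast form, had 25.1, 24.2 and 23.3 CPM at 10 °C, against 33.5, 51.5 and 46.3 CPM at 27 °C, without overlap and without passing (log2 change -0.83, adjusted p = 0.108). The iron form FSD1 had a log2 change of -0.04 and overlapping groups.

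**Figure D4:**
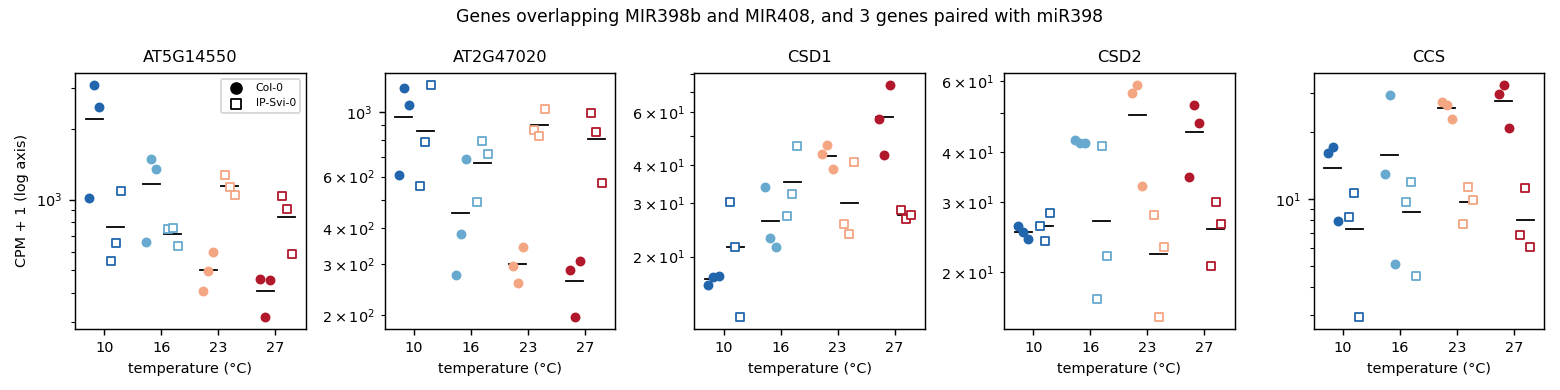
Level in each library (CPM + 1, log axis) of AT5G14550, AT2G47020, CSD1, CSD2 and CCS at 10, 16, 23 and 27 °C in Col-0 (circles) and IP-Svi-0 (squares); each point is a library and each bar a group mean. Between 10 and 27 °C, in Col-0 the first 2 genes are higher at 10 °C in every library and CSD1 is lower, and in IP-Svi-0 the groups of the first 2 overlap.

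The remaining lists held few calls. Of 9 measured beta-tubulins 1 was higher (TUB4, log2 change 0.88) and 2 lower (TUB8 at -1.18 and TUB3 at -0.86), none of which passed without replicate 3 at 10 °C. TUB8 and TUB3 did not pass without replicate 2 at 10 °C or replicate 1 at 27 °C either, nor TUB4 without replicate 1 at 10 °C or replicate 3 at 27 °C, nor TUB3 without replicate 2 or 3 at 27 °C. Of 20 light-signalling genes 1 was higher and 2 lower, but 0 passed without replicate 3 at 10 °C, without replicate 1 or 2 at 27 °C, with the covariate or after thinning. Without replicate 2 at 10 °C and by DESeq2 0 were higher and 1 lower, and without replicate 1 at 10 °C or replicate 3 at 27 °C 1 was higher and 1 lower. Of 8 gibberellin genes 1 was higher, the growth repressor GAI (log2 change 1.34, not called without replicate 3 at 10 °C or replicate 2 at 27 °C), and 1 lower, whose call was lost on leaving out replicate 1, 2 or 3 at 10 °C or replicate 1 at 27 °C. By edgeR's test 0 members passed among 8 measured genes of the H2A.Z histone exchange, 18 of the autonomous and vernalization pathways, 17 of wax and cutin and 13 of cell division. DESeq2 also gave 0 in each of these lists, and at an unadjusted p under 0.05 they held 1, 5, 2 and 1 genes, against 23.9% of all genes tested in either direction. Markers of other organs and stages were also read. Summed seed storage and glyoxylate genes stood at 173.6 to 384.0 CPM at 10 °C, against 145.5 to 248.0 CPM at 27 °C. Floral organ genes summed to 78.8 to 127.9 CPM, against 47.49 to 74.94 CPM, with 6 of 13 floral genes at 0 in both groups. Only 1 of the 13 was tested, a gene with an exon partner on the other strand, and it did not pass (log2 change 0.90). The untested floral genes held 30 counts at 10 °C and 37 at 27 °C. MLS and ICL, enzymes of seed oil use, were lower at 10 °C, with 1 and 2 counts there, against 30 and 24 counts at 27 °C; the call of ICL was lost when any 1 of the 6 libraries was left out. Senescence genes summed to 895.3 to 1094 CPM at 10 °C, against 676.9 to 980.8 CPM at 27 °C. The part of these markers in the results above was not tested.

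Set beside the 1156 genes of Col-0, 1855 genes (18.4%) changed in IP-Svi-0, and 456 changed in both, 450 in the same direction. These are 38.93% of the Col-0 calls and 24.26% of the IP-Svi-0 calls. The sign was the same in IP-Svi-0 for 80.54% of the genes higher at 10 °C in Col-0 and for 86.07% of those lower. That share was not computed over all genes tested, where the log2 changes of the 2 accessions had a Pearson correlation of 0.48 and a Spearman correlation of 0.40. For the higher genes the median log2 change was 1.4 in Col-0, against 0.56 in IP-Svi-0, and for the lower genes -1.53, against -0.92; the genes were chosen in Col-0, so its own values are larger by choice. The test of the difference itself passed for 98 genes (0.971%), 54 of them also called in Col-0; leaving out single libraries gave 23 to 434. Within Col-0, the means at 16 and 23 °C both lay between those at 10 and 27 °C for 453 of the 632 higher genes (71.68%) and 350 of the 524 lower ones (66.79%). These genes were chosen for their gap between 10 and 27 °C, which by itself favours means in between. The share among all genes tested was not computed, so no graded response is read from these shares.

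Genes of stress signalling that fell in Col-0 were among those whose change differed between the accessions. SZF1, a zinc-finger protein of salt stress, had 20.1, 8.08 and 20.9 CPM at 10 °C, against 149, 154 and 88.2 CPM at 27 °C in Col-0 (log2 change -2.88), and 33.4, 53.2 and 81.5 CPM at 10 °C, against 27.5, 29.0 and 32.6 CPM at 27 °C in IP-Svi-0. The difference between accessions was -3.73 on the log2 scale (adjusted p = 5.68e-05), the smallest adjusted p among the named genes. The differences of SZF1, ACS6, DIN10 and WRKY33 were called whichever of the 12 libraries was left out. ACS6, an enzyme of ethylene synthesis, had 1.68, 4.04 and 6.98 CPM at 10 °C, against 47.2, 31.7 and 33.1 CPM at 27 °C in Col-0, with a log2 change of 0.26 in IP-Svi-0 that did not pass. DIN10, a gene of dark and sugar starvation that overlaps AT5G20260, had 15.1, 0 and 2.33 CPM at 10 °C, against 128, 165 and 126 CPM at 27 °C in Col-0, and 93.8, 118 and 105 CPM at 10 °C, against 114, 126 and 88.5 CPM at 27 °C in IP-Svi-0. Over the Col-0 series SZF1 stood at 12.6 to 32.8 CPM at 16 °C and 134 to 150.5 CPM at 23 °C, so the step lay between these temperatures; WRKY33, at 20.5 to 41.0 and 139.8 to 231 CPM, had its step there too.

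**Figure D5:**
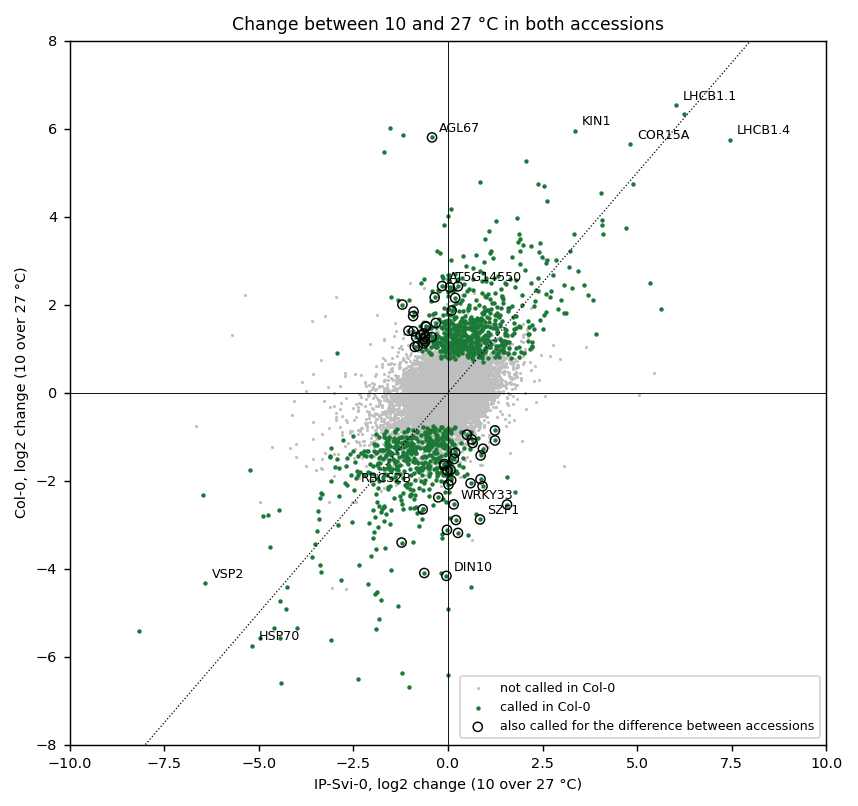
Log2 change (10 over 27 °C) of each gene tested, with Col-0 on the vertical axis and IP-Svi-0 on the horizontal one; green points are called in Col-0, and rings mark those whose change differs between the accessions (edgeR, adjusted p under 0.05). Most genes called in Col-0 have the same sign in IP-Svi-0, and ringed genes such as SZF1 and DIN10 lie low in Col-0 and near 0 or above in IP-Svi-0.

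Among single genes, AT1G69140, annotated as a transcribed pseudogene, had 969, 993 and 986 CPM at 10 °C, against 28.6, 18.5 and 18 CPM at 27 °C (log2 change 5.47 ± 0.34 SE, adjusted p = 2.56e-13). Its level fell at each step, with 135 to 158 CPM at 16 °C and 44.4 to 79.7 CPM at 23 °C. In IP-Svi-0 it was at 0 in all 3 libraries at 10 °C and in 2 of 3 at 27 °C, so no change could be measured there. AGL67, a MADS-box gene that overlaps AT1G77960, had 26.8, 52.5 and 44.2 CPM at 10 °C, against 1.24, 0 and 0 CPM at 27 °C, from 48 counts and 1 count. SQP1, a squalene epoxidase-like gene, had 1.68, 0 and 2.33 CPM at 10 °C, against 49.7, 34.3 and 41.9 CPM at 27 °C, and AT1G07135 had 3.35, 0 and 0 CPM, against 87.0, 77.8 and 50.7 CPM.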

How the data were processed

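Whole-seedling RNA of 24 libraries was sequenced from strand-specific libraries, per the labels' protocols. The authors deposited raw read counts per gene for each library. The submitters' processing notes name FastQC, HISAT2, HTSeq, Cufflinks and Cuffdiff and the build TAIR10, without roles or settings. The 5 summary lines of each file, which name no gene, stayed out of library sizes and tests; reads at no feature were 69.2% to 89.8% of a library in the 6 libraries compared. From these counts, genes passing edgeR's filterByExpr (minimum count 10, 8 groups) were fitted over all 24 libraries with TMM scaling and 1 mean per group, and tested by edgeR's quasi-likelihood test (edgeR 4.0.16, R 4.3.3) with Benjamini-Hochberg adjustment over 10097 of 33602 genes at 0.05. The contrasts were 10 minus 27 °C in Col-0, the same in IP-Svi-0, and their difference. Levels are CPM scaled by TMM; floors and intervals cover counting error only. Of the table's IDs, 32835 matched RefSeq TAIR10.1, whose coordinates, exons and sequences are used; the files hold no coordinates.

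Simulated counts with 200 changed genes gave calls for 11% of 2-fold and 84% of 4-fold changes in this comparison, with 4.04% of 99 calls false. Named genes were those with the largest changes with a group mean of at least 20 CPM and no overlap of groups (with and without an opposite-strand exon), up to 3 per list and direction, a fixed set of well-known genes, the genes differing most between accessions and the organelle genes that changed most. Members, lists and rules were chosen with earlier results of these data known. AT2G47020, CSD2, CCS and FSD1, and list members named outside these rules, were added after their values were seen. Alternatives were other scalings, tools, filters and sample sets, leaving out each replicate, and a replicate block.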

Additional observations from a re-analysis of the deposited data

Results flagged for a closer look

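The change between 10 and 27 °C differed between Col-0 and IP-Svi-0, by edgeR's test of the difference (Col-0 minus IP-Svi-0, log2, Benjamini-Hochberg adjusted p under 0.05), for 17 of the genes named. Of these, 6 had a positive difference. AGL67 differed by 6.22 (adjusted p = 0.0279), with a log2 change of 5.80 in Col-0, against -0.42 in IP-Svi-0. Rap2.6L, an ethylene response factor, differed by 3.21 (adjusted p = 0.0442), with log2 changes of 2.0 in Col-0 and of -1.21 in IP-Svi-0. AT4G24410 differed by 2.75 (adjusted p = 0.0301), AT5G33330, which overlaps the phosphate translocator gene CUE1, by 2.66 (adjusted p = 0.00141), AT5G14550, opposite MIR398b, by 2.58 (adjusted p = 0.00331), and AT2G47020, opposite MIR408, by 1.77 (adjusted p = 0.0471).

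The other 11 had a negative difference. The photosynthesis genes were FD1 (-1.99), LHCB4.3 (-1.75), RBCS2B (-1.56) and RBCS1A (-1.59), with adjusted p between 0.00997 and 0.0483. DIN10 differed by -4.12 (adjusted p = 0.00126), PUP18, of the purine permease family, by -4.10 (adjusted p = 0.0301), SZF1 by -3.73 (adjusted p = 5.68e-05), AT5G24155 by -3.47 (adjusted p = 0.0301) and ACS6 by -3.45 (adjusted p = 0.00709). WRKY33 differed by -2.69 (adjusted p = 0.00144) and UGT74B1 by -1.82 (adjusted p = 0.049). PUP18 had 6.71, 4.04 and 2.33 CPM at 10 °C, against 37.3, 23.8 and 22.0 CPM at 27 °C in Col-0, and 5.21, 13.3 and 13.6 CPM at 10 °C, against 1.97, 1.70 and 5.09 CPM at 27 °C in IP-Svi-0, where 10 °C libraries were all above those at 27 °C without passing the test (adjusted p = 0.124). Leaving out 1 of the 12 libraries at a time, 7 to 17 of the 17 kept their call; FD1, WRKY33, AT5G33330, AT5G14550, DIN10, SZF1 and ACS6 kept it in all 12 fits, and UGT74B1 lost it in 10, RBCS1A in 9, Rap2.6L, AT4G24410 and AT2G47020 in 8, AGL67, RBCS2B, PUP18 and AT5G24155 in 7 and LHCB4.3 in 3.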

How the results depend on the processing

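Counts of genes called between 10 and 27 °C in Col-0 stayed within 1.5 times of 1156 under DESeq2 (1002), DESeq2 size factors, the compared groups or the accession fitted alone, other filters on low counts, a fold of at least 2, organelle genes left out and the covariate. Tested on genes without an opposite-strand exon alone, 645 were called (342 higher, 303 lower); fewer genes entered that fit. With libraries thinned to 338784 counts, 316 were lower. Leaving out each replicate gave 703 to 1207 genes (376 to 780 higher, 327 to 442 lower), the fewest without replicate 3 at 10 °C. The labels do not say that shared replicate numbers pair the samples, and 3 libraries per group cannot show whether they do. Correlations of same-numbered deviations in Col-0 were 0.127, -0.111 and 0.0214, and those of other pairs ran from -0.241 to 0.187. A replicate block gave 1156 genes. In IP-Svi-0, thinning gave 1135 (501 higher, 634 lower), genes without an overlap 1209 (635 lower), and leaving out replicates 1173 to 1914 (531 to 782 higher, 642 to 1147 lower). The difference between accessions moved most: 98 genes, against 243 with DESeq2, 233 with no filter, 201 with at least 1 CPM in 3 libraries, 65 thinned, 53 without overlapping genes and 23 to 434 without single replicates; the cause was not tested. Of the 101 named genes called, 72 to 89 kept call and direction when a replicate was left out and 82 with the covariate. ATCG00100 had log2 changes of -0.96 (without replicate 2 at 10 °C) to 3.98 (without replicate 1 at 10 °C), against 3.17 in all. At the depth and spread of these libraries, and with 200 of 10097 genes changed, 11% of simulated 2-fold changes were called. That share depends on the number of changed genes, so it need not hold for data with 1156 calls. Depth alone was not varied there.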

Other observations

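In IP-Svi-0, 43 of the 50 measured photosystem genes were higher at 10 than at 27 °C, and the median log2 change was 1.59. Among seed genes in IP-Svi-0, 9 of the 11 measured genes of seed storage and oil use were lower at 10 °C, where the list summed to 147.5 to 301.4 CPM, against 1104 to 1568 CPM at 27 °C, while in Col-0 the sums were 173.6 to 384.0 CPM at 10 °C, against 145.5 to 248.0 CPM at 27 °C. SESA3, an albumin stored in seeds, had 23.5, 12.1 and 2.33 CPM at 10 °C in Col-0, against 0 counts at 27 °C, so it was at least 8.5-fold higher with 3 counts over the group as the floor; its call was lost without replicate 1 at 10 °C, with DESeq2 and when any 1 replicate at 27 °C was left out.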
